A study of Mus musculus with 45 samples.

Results

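The 10 genes described here act in release, refilling or sensing of the calcium store, in calcium entry from outside or, for Ppif, in mitochondria. They are Itpr1, Itpr2, Atp2a2, Stim1, Stim2, Orai1, Cracr2a, Trpm7, Cacna1h and Ppif. They were taken by symbol from a count table of 55357 gene identifiers, and each symbol had 1 row. They were selected on earlier results of these data: Cracr2a was known to be higher in AY than in AA (the group names are explained next), and the other 9 belong to the same pathway and were listed with it. The values of Cracr2a among AA, AY and YY are therefore a description with no test. The other 9 members and the gene lists used below were also chosen with earlier results known. Their p-values may thus not be independent of that choice. RNA was sequenced from 45 single mouse oocytes, 1 library each. In 29 of them the oocyte had been placed into a follicle emptied of its own oocyte and cultured there, a reconstituted chimeric follicle: 11 young oocytes with young somatic cells (YY), 6 aged oocytes with young somatic cells (AY) and 12 aged oocytes with aged somatic cells (AA). The other libraries were 8 oocytes of young mice after culture in vitro (in vitro young) and 8 of young mice without culture (in vivo young). YY, AY, AA and in vitro young thus share culture, and all 3 chimeric groups share the transplantation, which neither control group had. Strain, age in weeks, the animal each oocyte came from and the meiotic stage are not given in the sources used here.

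Oocytes keep calcium in the endoplasmic reticulum. Inositol trisphosphate receptors (Itpr1, Itpr2) release it, the pump SERCA2 (Atp2a2) returns it, and the membrane proteins STIM1 and STIM2 sense how full the store is. An emptied store makes STIM proteins gather next to the plasma membrane and open the channel ORAI1, a step that the cytosolic calcium-binding protein CRACR2A is known to stabilise in lymphocytes. In mouse oocytes and eggs calcium also enters through TRPM7, a channel with a kinase domain, and the T-type voltage-gated channel encoded by Cacna1h. Repeated release and refilling gives the calcium oscillations of fertilization, which in mouse eggs are attributed mainly to the type 1 receptor. Cyclophilin D (Ppif) regulates the permeability transition pore of mitochondria, which take up part of the released calcium.

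Promoter sequences of 7 of the 10 genes were found in RefSeq (GRCm38.p6), as 300 bases from 250 before to 50 after the annotated start, without Atp2a2, Cacna1h and Itpr1. The 3 printed here belong to the member that was absent from most libraries (Cracr2a) and to the pair of paralogues whose levels differed most (Stim1 and Stim2). They lie at chr6:127561086-127561385 (Cracr2a), chr7:102267569-102267868 (Stim1) and chr5:53998273-53998572 (Stim2), all on the plus strand and written 5′ to 3′, with CG dinucleotides in capitals.
Cracr2a: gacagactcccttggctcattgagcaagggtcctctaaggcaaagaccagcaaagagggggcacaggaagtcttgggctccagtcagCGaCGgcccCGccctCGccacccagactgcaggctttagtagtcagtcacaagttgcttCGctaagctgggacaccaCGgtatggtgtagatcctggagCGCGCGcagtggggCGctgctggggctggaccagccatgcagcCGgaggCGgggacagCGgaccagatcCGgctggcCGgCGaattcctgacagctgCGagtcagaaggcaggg
Stim1: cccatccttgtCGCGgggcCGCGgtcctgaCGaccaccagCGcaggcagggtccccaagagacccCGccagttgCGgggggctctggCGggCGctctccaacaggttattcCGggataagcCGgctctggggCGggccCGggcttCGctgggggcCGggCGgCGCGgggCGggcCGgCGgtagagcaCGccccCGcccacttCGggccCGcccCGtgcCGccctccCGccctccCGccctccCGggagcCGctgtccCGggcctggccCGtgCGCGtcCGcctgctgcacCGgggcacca
Stim2: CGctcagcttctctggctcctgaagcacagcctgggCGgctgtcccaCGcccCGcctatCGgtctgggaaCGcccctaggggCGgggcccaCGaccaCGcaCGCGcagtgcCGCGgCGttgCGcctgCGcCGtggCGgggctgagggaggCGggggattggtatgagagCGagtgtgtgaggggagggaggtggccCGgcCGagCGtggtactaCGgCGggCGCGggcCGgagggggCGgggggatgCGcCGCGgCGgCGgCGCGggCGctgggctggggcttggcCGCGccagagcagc
Cracr2a held 17 CG dinucleotides, more than 68.6% of the 32851 promoters of that table (median 7.0), and was 63.3% G and C. Stim1 held 38 and Stim2 39, more than 95% and 95.6% of promoters, so the paralogues with the most unequal RNA levels had nearly equal CG counts. The other matched members were Itpr2 (26), Ppif (31), Trpm7 (35) and Orai1 (36). The letters TATAAA, searched on both strands, occurred in none of the 7 and in 13.6% of all promoters. The letters CCAAT occurred in Itpr2, Orai1, Ppif and Stim2 and in 37.4% of all promoters.

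Total counts per library ranged from 418703 to 2201980. Levels are CPM scaled by TMM, that is, relative to the counts of the library, so more RNA of a gene cannot be told apart from less of all other RNA. The 8 oocyte markers examined were present in every group, with sums of 13200 to 24600 CPM. Markers of granulosa cells, which surround the oocyte, were also present: their 12 genes summed to a median of 727 CPM in YY (541 to 832), 1310 in AY (834 to 1410), 1030 in AA (653 to 1210), 641 in in vitro young (549 to 1040) and 607 in in vivo young (436 to 955). Most of that sum was Serpine2, Amh was at 0 in all libraries, Foxl2 was at 0 in YY and both control groups, and Inha averaged 6.64 CPM in YY, 44.3 in AY and 49.99 in AA. Whether these cells have a part in any comparison of the chimeric groups below was not tested. Theca and stroma markers reached at most 9.74 CPM, immune markers 31.8 and endothelium and blood markers 133. Library numbers of the groups did not overlap, so numbering series and group cannot be told apart, and YY held 2 series, S198 to S202 (n = 5) and S225 to S231 (n = 6). In earlier results 11 genes that were either abundant or nearly absent divided the libraries into 10 patterns. YY held 4 of them, AY 2, AA 2, in vitro young 4 and in vivo young 3. Some were shared: in vivo young replicates 1 and 2, in vitro young replicate 1 and YY replicates 2 and 5 had the same pattern. A pattern thus need not belong to 1 group, and whether it stands for 1 animal was not tested. None of the 10 members is among those 11 genes. The libraries are labelled as biological replicates with no animal named. The p-values therefore reflect the spread between libraries, which may be partly technical. Any oocytes of 1 animal were counted as independent, so the p-values do not measure the spread between animals.

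Across the 5 comparisons few of the members were called, that is, passed an adjusted p of 0.05 (edgeR, quasi-likelihood F test, Benjamini-Hochberg correction over all genes). Stim1 passed the filter on low counts nowhere and Cracr2a only among the chimeric groups, where it was not tested, so 8 members were tested in each comparison. In AA against YY, 2 of 8 were lower (Atp2a2 and Cacna1h), where 27.5% of all 8533 genes were called in either direction. The members' median log2 change was -0.08, and that of all genes -0.01. In AY against AA, 1 was higher (Atp2a2) and 1 lower (Stim2), against 6.59% of all genes. In AY against YY none was called, against 1.62% of all genes. Stim2 alone had an unadjusted p under 0.05 there, and DESeq2 and limma voom also called 0. In YY against in vitro young, Itpr1 was lower, against 2.48% of 8749 genes. In in vitro young against in vivo young, Ppif was higher, against 0.137% of 8749 genes. The share of members called in AA against YY lay near the background share and is not a result about them. The first 3 comparisons share libraries with each other, as do the last 2, and YY stands in both fits. Below, the libraries of a pattern are those of 1 group that share it. With them summed, edgeR called 2 of 11572 genes in AA against YY and 1 of 11572 in AY against AA. In AY against YY, YY against in vitro young and in vitro young against in vivo young it called 0 genes. A call lost in the summed fit therefore says nothing particular about its gene. Genes detected per library ran from 12980 to 15091 in YY and from 14894 to 16137 in in vitro young. With this number as a covariate, edgeR called 67 of 8749 genes in YY against in vitro young, where it called 217 without it. A call lost with the covariate in that comparison is therefore not particular to its gene either.

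**Figure D1:**
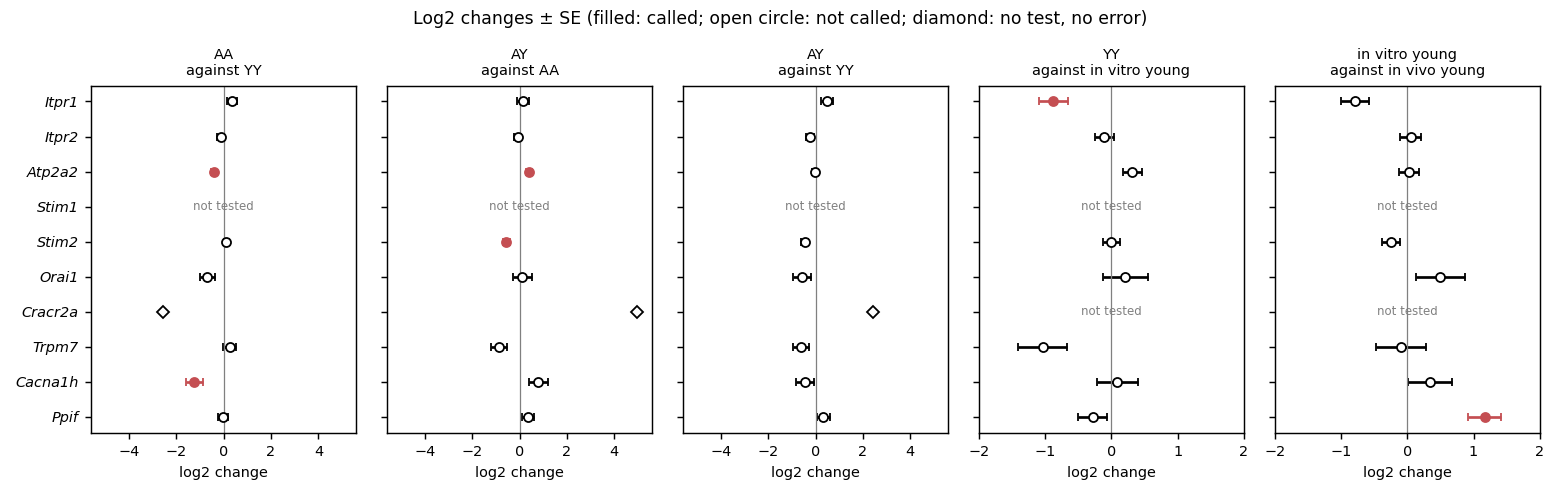
Log2 change ± SE of the 10 members in the 5 comparisons, from edgeR, with 0 marked by a vertical line. Filled points are called, open circles are not, and diamonds mark Cracr2a, which has no test. The first 3 panels share a wider horizontal scale than the other panels. Atp2a2 lies at -0.43 in AA against YY and at 0.39 in AY against AA.

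Between genes, levels were compared per kb of exon, with the exons of all annotated transcripts of a gene united. That length can exceed the length of the transcript present, so the order is approximate. Atp2a2 stood highest, with a mean of 31.7 CPM per kb over the 45 libraries, followed by Stim2 (22.4), Itpr2 (6.81), Orai1 (5.45), Ppif (3.41), Trpm7 (2.76), Itpr1 (1.55), Cacna1h (1.05), Cracr2a (0.427) and Stim1 (0.106). The pump and 1 store sensor were thus the abundant transcripts, and the entry channels lay below them. Cracr2a was detected in 17 libraries, Stim1 in 23 and each of the other 8 in all 45.

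**Figure D2:**
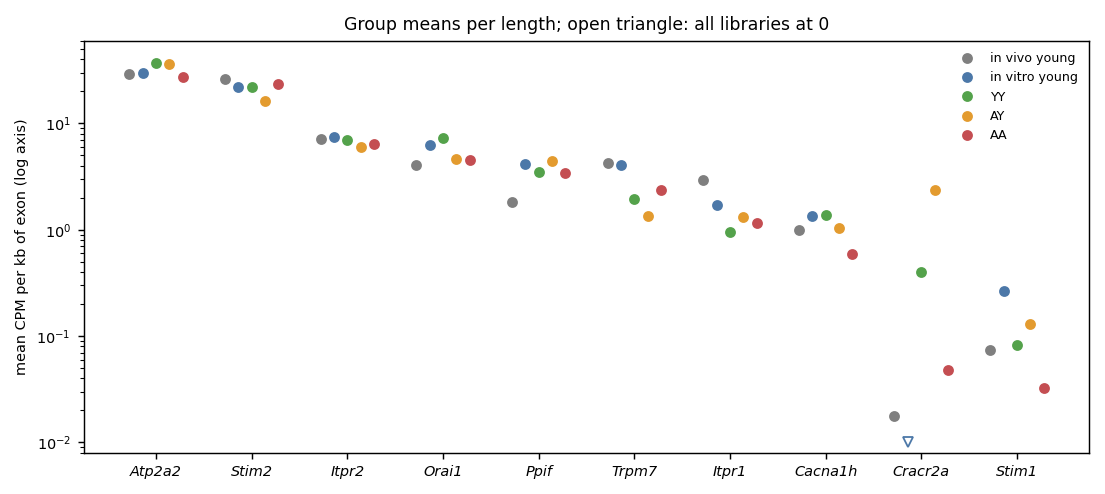
Mean CPM per kb of exon (log axis) of each member in each of the 5 groups, with members ordered by their mean over all libraries. An open triangle marks a group in which all libraries were at 0. Atp2a2 ranged from 27.6 in AA to 37.0 in YY, while Cracr2a ranged from 0 in in vitro young to 2.34 in AY.

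The type 1 receptor gene Itpr1 (chromosome 6, 108190057 to 108528071, mm39) was highest in uncultured oocytes and lower in cultured and chimeric ones. Its level was 54.3 ± 13.0 CPM in in vivo young (SD, n = 8), with a lowest, median and highest library of 38.3, 53.9 and 80.7. In vitro young libraries spanned 15.3 to 45.4 with a median of 31.7, at a mean of 31.1 ± 9.97 CPM (SD, n = 8). YY spanned 9.97 to 29.6 with a median of 15.4, at a mean of 17.3 ± 6.40 CPM (SD, n = 11). All 11 YY libraries lay below the median of in vitro young and 5 lay below its lowest library, so the ranges overlapped in part. Itpr1 fell in YY against in vitro young, by a log2 change of -0.88 ± 0.21 (SE, edgeR adjusted p = 0.0165). The call was lost without in vitro young replicate 5 (-0.77, adjusted p = 0.0682) or replicate 6 (-0.81, adjusted p = 0.053), and with YY libraries S198 to S202 alone (-0.73, adjusted p = 0.165). At a similar size Itpr1 also lost it with genes detected per library as a covariate (-0.90, adjusted p = 0.0603), with the libraries of a pattern as a random block (-0.86, limma voom, adjusted p = 0.119) and with those libraries summed (-0.79, adjusted p = 0.25). All 8 in vitro young libraries lay below the in vivo young median, and 6 below its lowest library, but the log2 change of -0.79 ± 0.21 (SE) was not called by edgeR (adjusted p = 0.11), while DESeq2 called it (adjusted p = 0.0359).

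Among the chimeric groups Itpr1 differed less than its spread. AY stood at 24.1 ± 5.32 CPM (SD, n = 6; 17.6 to 32.1) and AA at 21.4 ± 7.99 CPM (SD, n = 12; 8.16 to 34.2). The log2 changes were 0.34 ± 0.22 for AA against YY, 0.14 ± 0.25 for AY against AA and 0.48 ± 0.26 for AY against YY (SE), none called by edgeR (adjusted p of 0.257, 0.8 and 0.406). The gene whose log2 level was most like that of Itpr1 over the 45 libraries was Cltc, the clathrin heavy chain, with a Pearson r of 0.865 among 7854 genes compared. Cltc likewise had its highest mean in in vivo young (194 ± 35.3 CPM, SD, n = 8) and its lowest in YY (64.2 ± 16.2 CPM, SD, n = 11). The libraries share groups and depth, so this r is a description.

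Itpr2, the type 2 receptor gene (chromosome 6, 146009797 to 146403722, mm39), was the steadier and the more abundant of the pair. Group means ran from 88.5 ± 9.26 CPM in AY (SD, n = 6) through 94.3 ± 20.0 in AA (SD, n = 12), 103 ± 28.4 in YY (SD, n = 11) and 106 ± 23.1 in in vivo young (SD, n = 8) to 111 ± 11.8 in in vitro young (SD, n = 8). No neighbours in this order differed by more than their SDs. Its log2 changes lay between -0.23 ± 0.16 (AY against YY) and 0.05 ± 0.15 (in vitro young against in vivo young), and edgeR called none. It was called lower in AA only against the YY libraries S225 to S231 (-0.36, edgeR adjusted p = 0.0274), and turned to 0.19 against S198 to S202. Per kb of exon Itpr2 exceeded Itpr1 in 45 of 45 libraries. The ratio of their summed counts per kb was 7.64 in YY, 5.29 in AA, 4.69 in AY, 4.36 in in vitro young and 2.6 in in vivo young. Between libraries the ratio ran from 1.74 to 18.4, so the chimeric groups, with 3.64 to 18.4 in YY and 3.2 to 6.63 in AY, overlapped.

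**Figure D3:**
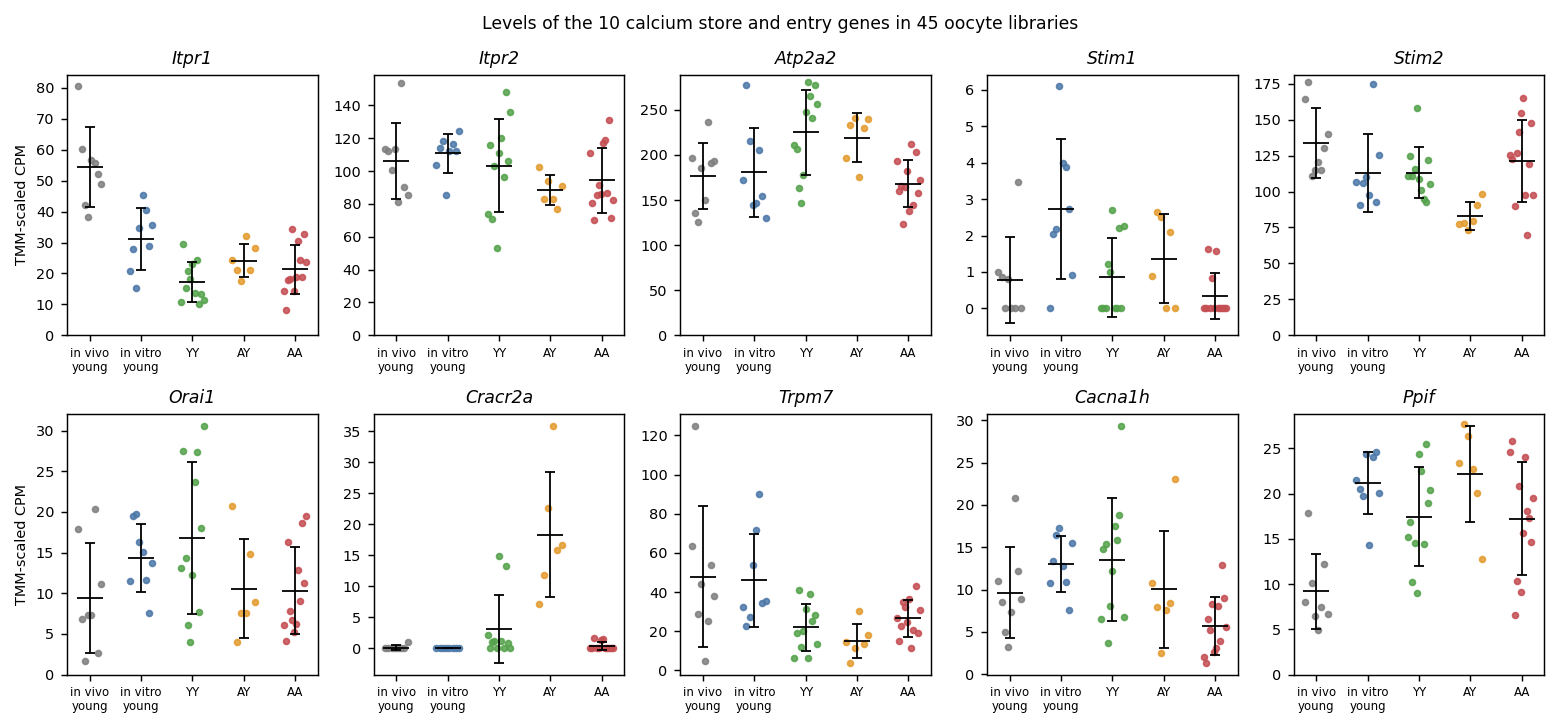
CPM (TMM-scaled, linear axis of its own in each panel) of the 10 members in the 45 libraries, by group. Points are libraries, and lines give the mean ± SD. Itpr1 runs from 54.3 in in vivo young to 17.3 in YY, Atp2a2 is lowest in AA (168), Stim2 is lowest in AY (82.8), and Cracr2a lies near 0 outside AY and 2 YY libraries.

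The store pump gene Atp2a2 (chromosome 5, 122591576 to 122640289, mm39) was lower in AA than in either chimeric group with young somatic cells. AA libraries spanned 123 to 212 CPM with a median of 164.9 (168 ± 26.3, SD, n = 12), YY libraries 147 to 281 with a median of 241.4 (225.1 ± 46.9, SD, n = 11) and AY libraries 176 to 241.3 with a median of 232 (219 ± 26.9, SD, n = 6). All 12 AA libraries lay below the YY median, 3 of them below the lowest YY library, and all 6 AY libraries lay above the AA median. Atp2a2 fell in AA against YY by a log2 change of -0.43 ± 0.10 (SE, edgeR adjusted p = 0.00155), and rose in AY against AA by 0.39 ± 0.12 (SE, edgeR adjusted p = 0.0426). AY against YY gave -0.04 ± 0.12 (SE, edgeR adjusted p = 0.929). The control groups stood at 181 ± 49.3 CPM (in vitro young; 130 to 277.5) and 177 ± 36.8 CPM (in vivo young; 126 to 237), each SD with n = 8, so AA did not stand below the uncultured oocytes by more than the spread.

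The difference of Atp2a2 between AA and YY depended on which YY libraries were used. YY libraries S198 to S202 spanned 147 to 211 CPM (181 ± 27.6, SD, n = 5) and S225 to S231 spanned 241.4 to 281 CPM (262 ± 16.0, SD, n = 6), with no overlap within this 1 group. Against S198 to S202 alone the change was -0.11 (edgeR adjusted p = 0.652), and against S225 to S231 alone -0.65 (adjusted p = 1.19e-06). Its call for AA against YY was otherwise kept in each of 23 fits that left out 1 library, and lost when the libraries of a pattern were summed (-0.39, adjusted p = 0.336). For AY against AA the Atp2a2 call held in 7 of 18 fits that left out 1 library (adjusted p from 0.0253 to 0.0987). It was lost without AY replicate 1, 2, 3, 5 or 6 and without AA replicate 2, 4, 5, 7, 9 or 11. At a similar size Atp2a2 also lost it with a minimum count of 1 (0.39, edgeR adjusted p = 0.0532), with genes detected per library as a covariate (0.40, adjusted p = 0.0523), with all 45 libraries in 1 fit (0.39, adjusted p = 0.0707), with the pattern as a random block (0.43, limma voom, adjusted p = 0.166) and with libraries of a pattern summed (0.41, adjusted p = 0.62). The most alike gene of Atp2a2 was Ern1, a sensor of unfolded protein in the endoplasmic reticulum (Pearson r 0.819 over 45 libraries), at 385 ± 91.2 CPM in YY (SD, n = 11) and 247 ± 35.6 CPM in AA (SD, n = 12).

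Of the store sensors, Stim2 (chromosome 5, 54155841 to 54278400, mm39) carried nearly all counts. It was lowest in AY, at 82.8 ± 9.77 CPM (SD, n = 6; 72.9 to 98.6, median 78.6). The other chimeric groups stood at 113 ± 17.9 CPM (YY, SD, n = 11; 93.0 to 158, median 111) and 122 ± 28.5 CPM (AA, SD, n = 12; 69.6 to 164.8, median 124). All 6 AY libraries lay below the medians of both, and 5 of them below the lowest YY library. Stim2 fell in AY against AA by a log2 change of -0.56 ± 0.14 (SE, edgeR adjusted p = 0.0149). The call was lost without AY replicate 1 (-0.53, adjusted p = 0.0533), and held in the other 17 fits that left out 1 library. Stim2 also lost it with the pattern as a random block (-0.52, limma voom, adjusted p = 0.173) and with libraries of a pattern summed (-0.55, edgeR adjusted p = 0.578). AY against YY gave -0.46 ± 0.15 (SE, edgeR adjusted p = 0.104), AA against YY 0.11 ± 0.12 (adjusted p = 0.539) and YY against in vitro young 0 ± 0.13 (adjusted p = 1). In vitro young stood at 113 ± 27.4 CPM and in vivo young at 134 ± 24.4 CPM (SD, n = 8 each). The most alike gene of Stim2 was Znrf2, a membrane-associated ubiquitin ligase (Pearson r 0.664 over 45 libraries).

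Stim1 (chromosome 7, 101917013 to 102086527, mm39) was near the limit of detection, with 51 counts in all 45 libraries against 4818 of Stim2. It had 25 counts in in vitro young, 8 in YY, 7 in AY, 7 in in vivo young and 4 in AA, and was at 0 in 1, 6, 2, 4 and 9 libraries of these groups. The group means were 2.73 ± 1.92 CPM in in vitro young (SD, n = 8), 0.856 ± 1.09 in YY (SD, n = 11), 1.36 ± 1.22 in AY (SD, n = 6), 0.768 ± 1.18 in in vivo young (SD, n = 8) and 0.336 ± 0.637 in AA (SD, n = 12). The ranges of neighbours in the order of means overlapped. The mean of in vitro young lay above those of in vivo young and AA by more than either SD, and 7 of 8 in vitro young libraries lay above the in vivo young median. Stim1 missed the filter on low counts, so no difference was tested in these fits. With a minimum count of 1, where 9 members were tested, edgeR called Stim1 in no comparison. Per kb of exon Stim2 exceeded Stim1 in 45 of 45 libraries, with a ratio of summed counts of 191.

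Orai1, the store-operated channel (chromosome 5, 123153137 to 123168520, mm39), was a low transcript in every group. YY stood at 16.8 ± 9.32 CPM (SD, n = 11; 4.03 to 30.6), in vitro young at 14.4 ± 4.17 (SD, n = 8; 7.53 to 19.7), AY at 10.6 ± 6.08 (SD, n = 6; 3.95 to 20.7), AA at 10.3 ± 5.39 (SD, n = 12; 4.08 to 19.5) and in vivo young at 9.41 ± 6.73 (SD, n = 8; 1.68 to 20.4). These ranges overlapped, and edgeR called Orai1 in no comparison. The change nearest to a call was AA against YY, with -0.70 ± 0.31 (SE, edgeR adjusted p = 0.0909), and 9 of 12 AA libraries lay below the YY median. It was called without YY replicate 5 (-0.82, adjusted p = 0.0358) and against YY libraries S225 to S231 alone (-0.97, adjusted p = 0.0175). Over the 45 libraries Orai1 was most like Rbm15b, an RNA-binding protein (Pearson r 0.736).

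Cracr2a (chromosome 6, 127538301 to 127651212, mm39) was the 1 member that was absent from most libraries and present at a clear level in a few. The 6 AY libraries held 8, 9, 18, 19, 15 and 13 counts (replicates 1 to 6), or 7.20 to 35.9 CPM with a median of 16.2 and a mean of 18.3 ± 10.0 (SD). In YY, replicate 6 held 11 counts (14.9 CPM) and replicate 9 held 12 (13.3 CPM), while the other 9 libraries held 0 or 1. AA held 4 counts in 12 libraries, with 9 at 0 and a highest library of 1.64 CPM. In vivo young held 1 count in 8 libraries. In vitro young held 0 counts of 9352003, where 3 counts would be 0.321 CPM. No library had 3 to 7 counts: 8 libraries had 8 or more, 9 had 1 or 2 and 28 had 0.

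**Figure D4:**
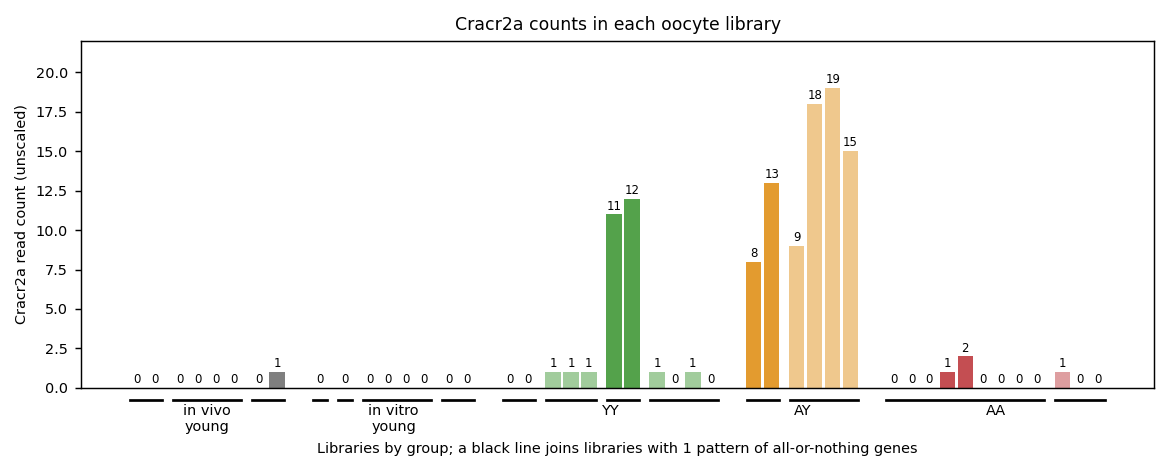
Read counts of Cracr2a (unscaled) in each of the 45 libraries, in groups. A black line under the axis joins the libraries that share 1 pattern of all-or-nothing genes, and shades set the patterns of a group apart. All 6 AY libraries hold 8 to 19 counts, and in YY the 2 libraries of 1 pattern hold 11 and 12, where the other 9 hold 0 or 1.

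All AY libraries thus lay above all AA libraries and 4 of 6 above all YY libraries, and the values of this gene chose it. Over summed counts Cracr2a made up 16.6 CPM in AY (95% Poisson interval 13.2 to 20.6), 3.24 in YY (2.15 to 4.68), 0.4 in AA (0.109 to 1.02) and 0.111 in in vivo young (0.00282 to 0.62). These intervals, here and below, cover the counting of reads only and are no test of the groups. They leave out the spread between oocytes and, as reads carry no molecular identifiers, that of amplification. The YY interval holds the level of none of its 4 patterns (0, 1.33, 14.5 and 0.604 CPM). The fitted log2 changes were 4.97 for AY against AA, 2.41 for AY against YY and -2.56 for AA against YY, given with no test. They rest on few counts and on the prior count of the fit, and limma voom gave 4.16 for AY against AA.

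Within YY the 2 libraries with 8 or more Cracr2a counts, replicates 6 and 9, were the whole of 1 of its 4 patterns, with 14.5 CPM over their sum (9.17 to 21.7). The other YY patterns held 0 counts (replicates 2 and 5), 1.33 CPM (replicates 1, 3 and 4) and 0.604 CPM (replicates 7, 8, 10 and 11). Both AY patterns held the transcript, at 11.2 CPM (replicates 1 and 6; 6.93 to 17.1) and 19.9 CPM (replicates 2 to 5; 15.2 to 25.5), while the 2 AA patterns stood at 0.412 and 0.367 CPM. The sources used here do not say whether libraries of a pattern came from 1 animal. The 6 AY libraries are therefore 2 patterns, and a difference between animals or series and one between groups cannot be told apart.

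The genes most like Cracr2a over the 45 libraries were Cst3, which encodes the protease inhibitor cystatin C (Pearson r 0.661), Sgo2b (0.617) and the pseudogene Rps24-ps3 (0.611). Cst3 stood at 195 ± 45.1 CPM in AY (SD, n = 6), 102 ± 30.1 in YY (SD, n = 11) and 76.8 ± 17.8 in AA (SD, n = 12), with 84.7 ± 20.1 and 62.4 ± 13.8 in the control groups (SD, n = 8 each). Unlike Cracr2a it was present in all libraries, with a lowest value of 46.8 CPM. Sgo2b stood at 48.9 ± 11.0 CPM in AY (SD, n = 6) and 24.9 ± 8.40 in AA (SD, n = 12). In YY it stood at 32.9 ± 24.1 (SD, n = 11), with a highest library of 92.1, where the highest AY library had 62.8. The control groups had 27.9 ± 11.9 (in vitro young) and 22.1 ± 10.7 (in vivo young; SD, n = 8 each). Rps24-ps3 has near-identical relatives, so its counts are uncertain. With 28 libraries of Cracr2a at 0, these r values are descriptions.

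Cacna1h, the T-type channel gene (chromosome 17, 25593259 to 25652758, mm39), was lowest in AA, at 5.72 ± 3.42 CPM (SD, n = 12; 1.36 to 13.0, median 5.38). YY stood at 13.5 ± 7.27 CPM (SD, n = 11; 3.64 to 29.4, median 14.8) and AY at 10.0 ± 6.93 (SD, n = 6; 2.51 to 23.1, median 8.17). All 12 AA libraries lay below the YY median and 4 below its lowest library. Each AA library held 1 to 10 counts of Cacna1h, 55 in total. The YY level differed by series, with 9.68 ± 5.19 CPM in S198 to S202 (SD, n = 5; 3.64 to 15.4) and 16.8 ± 7.54 in S225 to S231 (SD, n = 6; 6.81 to 29.4). Cacna1h fell in AA against YY by a log2 change of -1.24 ± 0.34 (SE, edgeR adjusted p = 0.00531), in each of 23 fits that left out 1 library. It lost the call with the pattern as a random block (-1.15, limma voom, adjusted p = 0.137) and with the libraries of a pattern summed (-1.15, edgeR adjusted p = 0.236), and was not tested against either YY series alone because it missed the filter there. AY against AA gave 0.79 ± 0.41 (SE, edgeR adjusted p = 0.255) and AY against YY -0.45 ± 0.39 (adjusted p = 0.658). In vitro young stood at 13.1 ± 3.30 CPM and in vivo young at 9.63 ± 5.38 CPM (SD, n = 8 each). The most alike gene of Cacna1h was Atp13a3, a polyamine transporter (Pearson r 0.763 over 45 libraries).

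Trpm7, the channel-kinase (chromosome 2, 126633485 to 126718151, mm39), varied widely between libraries. In vivo young libraries ran from 4.92 to 125 CPM (47.9 ± 36.0, SD, n = 8) and in vitro young libraries from 22.6 to 90.2 (46.0 ± 23.9, SD, n = 8). The chimeric groups lay lower, at 26.5 ± 9.43 CPM in AA (SD, n = 12), 22.1 ± 12.1 in YY (SD, n = 11) and 15.3 ± 8.70 in AY (SD, n = 6), and overlapped the controls. In YY 6 of 11 libraries lay below the lowest in vitro young library, and the log2 change of -1.04 ± 0.37 (SE) was not called by edgeR (adjusted p = 0.131). AY against AA gave -0.86 ± 0.34 (SE, edgeR adjusted p = 0.111). It was called without AY replicate 4 (-1.11, adjusted p = 0.0462) and with only these 2 groups in the fit (-0.85, adjusted p = 0.0457). Over the 45 libraries Trpm7 was most like Slc25a26, the mitochondrial carrier of S-adenosylmethionine (Pearson r 0.707).

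Ppif, the gene of cyclophilin D (chromosome 14, 25694578 to 25700893, mm39), was lower in uncultured oocytes than in the cultured ones. In vivo young libraries ran from 4.92 to 17.9 CPM with a median of 7.69 (9.20 ± 4.16, SD, n = 8), and in vitro young libraries from 14.3 to 24.6 with a median of 21.0 (21.2 ± 3.41, SD, n = 8). Of the in vitro young libraries 7 of 8 lay above all in vivo young libraries. Ppif rose in in vitro young against in vivo young by a log2 change of 1.17 ± 0.25 (SE, edgeR adjusted p = 0.0318). The call was fragile: of 16 fits that left out 1 library, 2 kept it (adjusted p from 0.0073 to 0.105), those without in vivo young replicate 2 or replicate 7. Ppif also lost it with a minimum count of 1 (edgeR adjusted p = 0.0597) and with genes detected per library as a covariate (adjusted p = 0.0882). The pattern as a random block (limma voom, adjusted p = 0.151) and libraries of a pattern summed (edgeR adjusted p = 0.695) lost it too. In this comparison the fits with the covariate, the random block and the sums called 0 of all genes. The chimeric groups stood at 22.2 ± 5.33 CPM in AY (SD, n = 6), 17.5 ± 5.42 in YY (SD, n = 11) and 17.2 ± 6.26 in AA (SD, n = 12), and edgeR called no change among them, the log2 changes being -0.03 ± 0.22, 0.37 ± 0.25 and 0.34 ± 0.26 for AA against YY, AY against AA and AY against YY (SE). Ppif was most like Lsm1, a factor of mRNA decay (Pearson r 0.713 over 45 libraries).

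Within groups the members varied together only weakly. Over deviations from the group means in 45 libraries, the pairs with the highest Pearson r were Orai1 and Cacna1h (0.49), Itpr2 and Ppif (0.47), Atp2a2 and Orai1 (0.45) and Itpr2 and Atp2a2 (0.41). Itpr1 and Itpr2 had an r of -0.03, and Orai1 and Cracr2a, whose products bind each other, -0.23. Part of the shared variation lay between the YY series: in S225 to S231 against S198 to S202, Itpr2 averaged 120 and 83.5 CPM, Ppif 21.0 and 13.2, Cacna1h 16.8 and 9.68, Orai1 20.0 and 13.0, and Stim2 104 and 124. The most alike gene of Itpr2 was Luzp1, a cytoskeletal protein (Pearson r 0.641 over 45 libraries). The libraries share depth and series, so these values are descriptions.

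The other genes of calcium signalling were 134 genes in 7 lists, all found in the table, of which 48 passed the filter among the chimeric groups and 56 among YY and the controls. Other forms of the members were low or absent: Atp2a1 was at 0 in all libraries, Orai2 and Atp2a3 never passed 0.684 CPM, Itpr3 reached 14.4 and Orai3 17.04. In AA against YY, 10 of 48 were higher and 6 lower, where 12.8% and 14.7% of all genes were. In AY against AA, 2 were higher and 4 lower, where 3.52% and 3.07% of all genes were. In AY against YY none of 48 was called by edgeR, DESeq2 or limma voom, with 9 at an unadjusted edgeR p under 0.05. In YY against in vitro young 1 of 56 was higher and 6 lower, where 0.777% and 1.7% of all genes were. In in vitro young against in vivo young none of 56 was called by any of the 3 tools, with 4 at an unadjusted edgeR p under 0.05. The lists' median log2 changes in these 5 comparisons were 0.06, -0.07, 0.04, -0.04 and -0.07, and the medians of all genes -0.012, 0.002, -0.013, 0.015 and -0.004. The shares of all genes given here also apply to the counts of each list below, none of which was tested as a set.

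Among genes of store refill and luminal calcium binding, 2 of 12 rose and 1 fell in AA against YY. Of all genes 12.8% rose and 14.7% fell there. Atp2c2, a calcium and manganese pump of the secretory pathway, fell from 60.5 ± 14.5 CPM in YY (SD, n = 11) to 28.0 ± 10.2 in AA (SD, n = 12), which is -1.10 ± 0.17 in log2 (SE, edgeR adjusted p = 7.03e-06). It rose in AY against AA by 0.69 ± 0.20 (SE, edgeR adjusted p = 0.0322), where it was the 1 called gene of the list. Atp2c2 lost that call without AY replicate 1, 2 or 6 or AA replicate 4, with genes detected per library as a covariate (0.64, adjusted p = 0.0528) and with the pattern as a random block (0.69, limma voom, adjusted p = 0.209). Its paralogue Atp2c1 rose in AA against YY by 0.35 ± 0.09 (SE, edgeR adjusted p = 0.00198). In YY against in vitro young 4 of 13 fell and 1 rose, where 1.7% and 0.777% of all genes did. Hspa5, the chaperone BiP that binds calcium in the store, fell from 418 ± 124 CPM in in vitro young (SD, n = 8) to 191 ± 55.9 in YY (SD, n = 11), by -1.13 ± 0.21 (SE, edgeR adjusted p = 0.00335). Pdia3, a disulfide isomerase of the same compartment, fell by 0.62 on the log2 scale (edgeR adjusted p = 0.00713). With genes detected per library as a covariate neither Hspa5 (edgeR adjusted p = 0.0603) nor Pdia3 (adjusted p = 0.0954) was called. That fit called 67 of 8749 genes in this comparison.

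Of phospholipase C and its G proteins, which make inositol trisphosphate, 3 of 7 rose and 1 fell in AA against YY. The shares of all genes were 12.8% and 14.7%. Plce1 rose by 0.54 ± 0.10 (SE, edgeR adjusted p = 0.000111), to 329 ± 25.01 CPM (SD, n = 12), and Gnaq fell by 1.17 on the log2 scale (edgeR adjusted p = 0.000858), to 7.21 ± 4.24 CPM (SD, n = 12). Plce1 was the 1 called gene of 7 in AY against AA, at -0.46 ± 0.12 (SE, edgeR adjusted p = 0.02), a call lost without AY replicate 1 or 6 and with the pattern as a random block (-0.49, limma voom, adjusted p = 0.0978). In YY against in vitro young 2 of 7 fell, where 1.7% of all genes did. Plcg2 fell by 1.08 (edgeR adjusted p = 0.0154) and Plcb1 by 0.69 (adjusted p = 0.0158) on the log2 scale. Both calls were lost with genes detected per library as a covariate (Plcg2 at -0.96, edgeR adjusted p = 0.101, and Plcb1 at -0.49, adjusted p = 0.167) and with the pattern as a random block (Plcg2 at -1.11, limma voom, adjusted p = 0.121, and Plcb1 at -0.60, adjusted p = 0.163). They were also lost with YY libraries S198 to S202 alone (adjusted p = 0.114 and 0.106), and that of Plcb1 without in vitro young replicate 8 (-0.60, adjusted p = 0.061).

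Mitochondrial calcium genes had 2 of 12 risen and 3 fallen in AA against YY, where 12.8% and 14.7% of all genes had. Mcu, the pore of the mitochondrial calcium uniporter, fell from 201.5 ± 38.3 CPM in YY (SD, n = 11) to 141 ± 33.2 in AA (SD, n = 12), by -0.53 ± 0.12 (SE, edgeR adjusted p = 0.000736), and Vdac3, an outer membrane channel, rose by 0.30 ± 0.08 (SE, adjusted p = 0.00542). In AY against AA Mcu rose by 0.45 ± 0.14 (SE, edgeR adjusted p = 0.0424) and Mcur1, a uniporter regulator, fell by 0.40 on the log2 scale (adjusted p = 0.0378). Mcu kept that call in 12 of 18 fits that left out 1 library and Mcur1 in 7. Both lost it with the pattern as a random block (limma voom, adjusted p = 0.138 and 0.178). Mcu also lost it with genes detected per library as a covariate (edgeR adjusted p = 0.0633), and Mcur1 with a minimum count of 1 (adjusted p = 0.0801). Of the extrusion genes 2 of 8 were tested. Atp2b1, a calcium pump of the plasma membrane, rose in AA against YY by 0.68 ± 0.19 (SE, edgeR adjusted p = 0.00817) and fell in AY against AA by 1.03 on the log2 scale (adjusted p = 0.0102). The latter call held in each of 18 fits that left out 1 library and was lost with the pattern as a random block (-0.93, limma voom, adjusted p = 0.0766). The exchanger gene Slc24a3 fell in AA against YY by 0.93 (edgeR adjusted p = 0.0252). Slc24a3 lost the call at a similar size without YY replicate 7 (-0.79, adjusted p = 0.0698) or 10 (-0.81, adjusted p = 0.0683) and with the pattern as a random block (-0.98, limma voom, adjusted p = 0.181).

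Of the entry list 3 of 33 genes were tested among the chimeric groups, and Saraf, a store-resident brake on store-operated entry, rose in AA against YY by 0.32 ± 0.09 (SE, edgeR adjusted p = 0.00793). Of the decoding list, Wee2, the oocyte kinase that acts at exit from meiosis after calcium release, was the 1 called gene of 9. It rose in AA against YY by 0.55 ± 0.10 (SE, edgeR adjusted p = 0.000103) and fell in AY against AA by 0.39 on the log2 scale (adjusted p = 0.0446). Wee2 kept the latter call in 4 of 18 fits that left out 1 library. The call was lost with minimum counts of 1 and 30 (edgeR adjusted p = 0.0589 and 0.0523) and with genes detected per library as a covariate (adjusted p = 0.0672). It was also lost with the pattern as a random block (limma voom, adjusted p = 0.101). Of the other store release genes 3 of 16 were tested among the chimeric groups and none was called. Of the genes named here for AA against YY, Atp2c2 alone was called against YY libraries S198 to S202 only, and Slc24a3 was not tested there. None of the calls of the 7 lists remained with the libraries of each pattern summed. Of all genes, those fits called 2 in AA against YY, 1 in AY against AA and 0 in YY against in vitro young.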

How the data were processed

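RNA of 45 single mouse oocytes was measured, each in 1 library made, per the labels' protocols, from a lysed oocyte with cDNA amplification. The deposited values are raw read counts, whole numbers, of 55357 identifiers. The submitters' processing notes name STAR 2.7.8a, HTSeq 0.11.0 and mm39. The sources used here give no strand setting for the counting, and reads of overlapping genes cannot be told apart. Coordinates are those of the table, counted from 1. Groups came from the titles, and columns were matched through the library numbers in the descriptions.

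Genes were kept by filterByExpr per group (minimum count 10, total of at least 15), scaled by TMM and tested with the robust quasi-likelihood F test of edgeR 4.0.16 (R 4.3.3). Benjamini-Hochberg adjustment ran over all genes tested, and an adjusted p below 0.05 was a call. The groups AA, AY and YY shared 1 fit (29 libraries, 8533 genes), and YY and the controls another (27 libraries, 8749 genes). SE values were derived from the F statistic. Levels are CPM scaled by TMM over all 45 libraries. Levels per kb used the union of exons of GENCODE M21 (GRCm38), matched by gene identifier. The fit was tested on simulated data. Libraries of the same group were compared for repeated deposits: in all 192 pairs counts differed by more than sampling noise (chi-square over degrees of freedom at least 1.98).

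The members and the gene lists were chosen with earlier results of these data known. All 10 members were named, and from each of 7 lists up to 2 called genes with the smallest p in each comparison. The most alike genes were those with the highest Pearson r of log2 CPM (prior count 2), 3 for Cracr2a and 1 for each other member that passed the filter, without predicted gene models.

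Alternatives were RLE size factors, DESeq2 1.42.0, limma 3.58.1 voom with quality weights, minimum counts of 1 and 30, other sets of libraries, genes detected per library as a covariate, a replicate block, libraries of a pattern as a random block, YY libraries of 1 series, and leaving out each library. Both the random block and the sums took together the libraries of 1 group with the same pattern. Summing them was chosen after seeing the data. Replicate numbers of the titles did not pair the libraries, as the closing section shows.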

Additional observations from a re-analysis of the deposited data

Results flagged for a closer look

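In 4 of 29 combinations of a member with AY, in vitro young or in vivo young, 1 library stood apart from the rest of its group by Dixon's criterion at 95%. For measures without ties chance gives such a library in about 5% of groups, but the Stim1 and Cracr2a values below are of 1 to 4 counts among zeros, to which that share does not apply, so the 4 are not set against it. Itpr2 reached 153.8 CPM in in vivo young replicate 6, the library with the highest total count, where the next library had 113.6. Stim2 reached 174.9 CPM in in vitro young replicate 6, where the next had 125.1. Stim1 reached 3.478 CPM in in vivo young replicate 7, which is 4 counts, where the next had 0.997. Cracr2a stood at 1.111 CPM in in vivo young replicate 8, which is 1 count, where the other 7 libraries had 0.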

How the results depend on the processing

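No called value of a member turned its sign in 1288 recomputed values, and 61 values called in neither fit did, the largest of them 0.416 in size (27 of them when 1 library was left out). Of 100 levels recomputed without scaling and with RLE factors, 0 moved by more than 1 SD.

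Members called in AA against YY, AY against AA, AY against YY, YY against in vitro young and in vitro young against in vivo young numbered 2, 2, 0, 1 and 1. With the libraries of a pattern summed each of these counts was 0, and with the pattern as a random block they were 1, 0, 0, 0 and 0. Of all genes, the summed fits called 2, 1, 0, 0 and 0, and the random block 1103, 97, 30, 97 and 0. For AA against YY the count was also 1 with a minimum count of 30 (3 members tested) or only these 2 groups in the fit (7 tested). It was 0 against YY libraries S198 to S202 (7 tested). Cacna1h missed the filter in each of these fits. Of all genes 34.8%, 28.3% and 5.43% were called in them. For AY against AA it was 1 with a minimum count of 1, with genes detected per library as a covariate or with all 45 libraries in 1 fit. For YY against in vitro young it was 0 with the covariate or with S198 to S202, and 2 with S225 to S231 or with all 45 libraries. With all 45 libraries the added member was Cracr2a, which missed the filter in the fit of YY and the controls and passed it here through the AY libraries that chose it, so this call is no support. Of its 28 counts in YY, 23 lay in replicates 6 and 9. In the comparison of the control groups the count of members was 2 with DESeq2, and 0 with a minimum count of 1 or the covariate. It was also 0 with a minimum count of 30, where 5 members were tested and Ppif missed the filter. Leaving out 1 library gave ranges of 2 to 3, 0 to 3, 0 to 0, 0 to 1 and 0 to 1.

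Pathway genes called numbered 16, 6, 0, 7 and 0 in the same order. With patterns summed all were 0, and with the random block they were 9, 0, 0, 3 and 0. The covariate gave 3 for AY against AA and 1 for YY against in vitro young, and a fit of only the 2 groups gave 10 for AY against AA. With S198 to S202 there were 3 for AA against YY and 1 for AY against YY, and with S225 to S231 2 for AY against YY. Leaving out 1 library gave 2 to 7 for AY against AA.

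Replicate numbers of the titles did not pair the libraries: 4 of 23 same-numbered pairs correlated above 0.1 (r from -0.12 to 0.21), and 5 of 29 libraries correlated best with their own number. With the replicate block Stim2 was called in AY against YY (1 member called), 0 members were called in YY against in vitro young (Itpr1 at -0.661, adjusted p = 0.151), and the other 3 member counts stayed at 2, 2 and 1. Signs turned with the block, uncalled, for Stim2 (0.041) and Cacna1h (-0.203) in YY against in vitro young, Atp2a2 in AY against YY (0.092) and Itpr2 in AY against AA (0.071).

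The other uncalled sign changes were as follows. With S198 to S202, AA against YY gave Itpr2 0.187, Stim2 -0.034 and Ppif 0.416, AY against YY gave Itpr2 0.106 and Atp2a2 0.287, and YY against in vitro young gave Cacna1h -0.416, Atp2a2 -0.002, Stim2 0.141 and Orai1 -0.229. With S225 to S231 Itpr2 was at 0.114 in YY against in vitro young. That comparison also gave Stim2 at 0.002 with DESeq2 and RLE factors, 0.003 with all 45 libraries, 0.005 with a minimum count of 30, 0.004 with only 2 groups, 0.104 with patterns summed, and 0.046 with the covariate and the random block. It gave Cacna1h -0.036 with voom, Itpr2 0.051 with the covariate and Orai1 -0.015 with the random block. Patterns summed gave Atp2a2 0.015 in AY against YY, Itpr1 -0.003 in AY against AA and Ppif 0.007 in AA against YY, and the random block gave Atp2a2 0.004 in AY against YY. In vitro young against in vivo young gave Atp2a2 -0.047 and Trpm7 0.057 with voom, Itpr2 -0.019 and Atp2a2 -0.03 with the covariate, and Atp2a2 -0.015 with the random block. Leaving out 1 library gave ranges across 0 for Ppif in AA against YY (-0.11 to 0.041), Orai1 in AY against AA (-0.202 to 0.289), Atp2a2 in AY against YY (-0.089 to 0.018), Stim2 (-0.057 to 0.123) and Cacna1h (-0.104 to 0.194) in YY against in vitro young, and Atp2a2 (-0.093 to 0.096) and Trpm7 (-0.3 to 0.276) in in vitro young against in vivo young. The cause of these changes was not tested. Summed fits hold fewer samples.

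Depth limits Stim1 and Cracr2a: 3 counts would be 0.3 to 0.607 CPM over the libraries of a group.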
